A study of Solanum virginianum with 2 samples.

Results

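Among the eggplant transcripts that pistil small RNAs were predicted to target, 121 were taken as protein kinase transcripts, of 12937 in the target table. Their annotation held the words protein kinase, receptor kinase or receptor-like kinase, or their symbol began with PERK, CRK, CPK, CIPK or MPK and a digit. The annotation words chose 22 transcripts and the symbols 100, with 1 chosen by both. The pistils were those of 'B3-3', a field-grown long purple eggplant whose plants carry flowers with short pistils (S-morph) as well as flowers with long pistils (L-morph). S- and L-morph pistils were mixed in the 1 small RNA library and in the 1 degradome library, and no difference between morphs can be read from them. The labels give days 1 to 3 and 3 to 6 after budding for both libraries. The extraction protocol names 6 pooled samples for the degradome, which add phase 5 (days 13 to 15). The organism field reads Solanum virginianum, while the series title reads Solanum melongena.

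Protein kinases transfer phosphate to other proteins and relay signals from the cell surface and from calcium. Plants carry many receptor-like kinases, whose outer domain meets the cell wall or a ligand and whose inner domain is the kinase. The proline-rich extensin-like receptor kinases (PERK) have an outer domain resembling wall proteins, and Arabidopsis members act in pollen tube and root hair growth. Cysteine-rich receptor-like kinases (CRK) act in stress and defence, CBL-interacting kinases (CIPK) work with calcium sensors in ion transport, calcium-dependent kinases (CPK) bind calcium themselves, and MPK proteins end the MAP kinase cascade. A plant miRNA guides cutting of a transcript opposite its own middle, and a degradome library captures the 5′ ends that such a cut leaves.

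Many kinase transcripts were paired with sequences made of repeated base triplets. The 10 small RNAs paired with most of them are printed here because the 218 pairs rested very unequally on 82 small RNAs. Capitals mark the seed, bases 2 to 8 from the 5′ end, and each line gives the name from the small RNA table and its sequence.
ptc-MIR6426b-p5: uUUUUUCUucuucuucuucu
csi-MIR396c-p3_1ss11TC: cUUCUUCUuccucuucuuccu
aqc-MIR482a-p5_1ss16TG: uGAUGAUGaugaugagg
ath-MIR414-p3_1ss15AG: uCAUCAUCaucaucgucg
aly-miR845b-5p_R-4_1ss1TA: aCAAUUGGuaucagagc
sof-MIR159c-p5_1ss11GA: gAAGAAGAugacgaagaa
PC-5p-737049_1: gUAAUCCCauaaguggggucuggg
aqc-MIR482a-p3_1ss4TC: uUCCCUUCccuuuccuuuu
ptc-MIR6426b-p3_1ss3AG: gAGGUGAAgaagaagaagaa
PC-5p-791564_1: gAGAAGUCccacaucagc
No seed was shared among these 10, and the 82 small RNAs held 71 different seeds, of which 11 occurred in more than 1 of them. In the names, a species prefix and family come from a known miRNA, while names that begin with PC carry no family. The codes after the family were read, from the names alone, as altered bases or, for L and R, altered ends.

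A repeat of 3 bases ran through 6 of these 10. A small RNA was called a triplet repeat where at least 70% of its bases equalled the base 3 places before, a limit chosen after the values were seen. Of the listed small RNAs 7 met it, and all 7 paired with kinase transcripts: both ptc-MIR6426b, the csi-MIR396c, aqc-MIR482a-p5, ath-MIR414-p3 and sof-MIR159c sequences above and ath-MIR414-p5_1ss16CA (cAUCAUCGucaucauaaucauc). They had 10 reads in all, 1 or 2 each. They supplied 119 of the 218 kinase pairs (54.6%, exact Clopper-Pearson 95% interval 47.7 to 61.3%) against 33.0% of all 18764 pairs. Without ASF1 and PERK13, the members with most such pairs, it was 88 of 187 (47.1%), an alternative chosen after the data were seen. Of the 121 kinase transcripts 64 were paired with one (52.9%, 43.6 to 62.0%), against 35.9% of all transcripts. As many, 64, were paired with other small RNAs, and 7 of the 121 had both kinds. All intervals here are exact and describe counting error alone. They leave out that pairs share small RNAs and transcripts, and that amplification copies can be counted as separate reads. Pairs, and transcripts that share a small RNA, are therefore not independent.

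ptc-MIR6426b-p5, a run of uridines followed by CUU repeats, with 1 read, paired with 32 kinase transcripts (26.4%, 18.8 to 35.2%). It was listed for 1490 of the 12937 transcripts of the whole table. Kinases made up 2.15% of its targets, beside 121 of 12937 in the whole table. csi-MIR396c-p3_1ss11TC paired with 15 kinase transcripts of 692 (2.17%). The aqc-MIR482a-p5 and ath-MIR414-p3 sequences paired with 12 each, of 1251 (0.959%) and 1333 (0.9%).

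**Figure D1:**
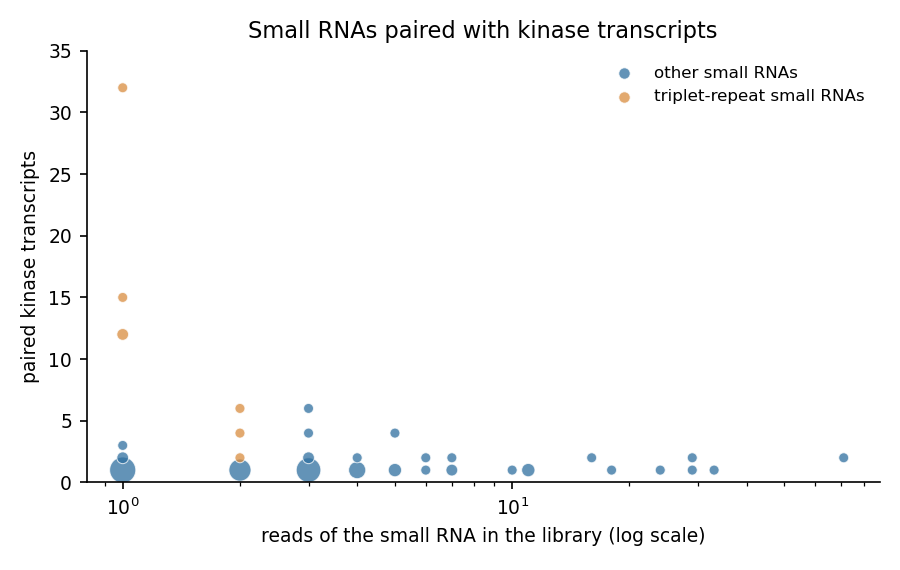
Each point is a position of reads in the small RNA library (horizontal, log scale) and number of paired kinase transcripts (vertical), larger where more of the 82 small RNAs fall on it. The triplet-repeat small RNAs, in orange, lie at 1 or 2 reads and reach 32 transcripts, while small RNAs of 10 or more reads pair with at most 2.

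No small RNA above 71 reads was paired with a kinase transcript. The 82 small RNAs held 449 of the 135737 listed reads (0.331%, 0.301 to 0.363%), with 1 to 71 reads each and a median of 3, against a median of 4 for the 509 small RNAs with any predicted target. Of the 82, 23 had 1 read (28.0%) and 11 had 10 or more (13.4%), against 22.0% and 33.0% of the 509. All 21 small RNAs of 1000 or more reads that had targets, together listed for 165 transcripts (1.28% of all), paired with 0 kinase transcripts, and a count of 0 of 121 allows a share of up to 2.48% (3 counts). At 100 or more reads the numbers were 1163 transcripts (8.99% of all) and 0 kinase transcripts. At 10 or more reads they were 2765 transcripts (21.4%) and 13 kinase transcripts (10.7%).

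The most abundant small RNAs with a kinase partner are shown next, since they are the ones best supported by reads.
stu-MIR482a-p5: gGAAUUGGuggauuggaaagc
gma-miR6300_R+1_1ss18GT: gUCGUUGUaguauaguguu
gma-miR6300_1ss18GT: gUCGUUGUaguauagugu
rco-MIR319c-p3: uGUGAAUGaugcgggagauaa
rgl-miR5139_L-1: aACCUGGCucugauacca
The first had 71 reads and paired with 2 PERK transcripts at the highest score allowed, 4. The others had 33, 29, 29 and 24 reads. Both miR6300 forms share a seed. Of these 5, all best scores on kinase transcripts were 3.5 or 4, and none of their kinase pairs had a degradome read.

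The label of the set was checked against the other columns of the table. A gene ontology term with the word kinase was given for 112 of the 121 transcripts. The KOG class of signal transduction was given for 71 (58.7%), against 2.95% of all transcripts of the table. A further 28 had no KOG class and 22 another class. All 82 PERK transcripts had a kinase term, and 48 had the signal transduction class. Annotation and symbol went against each other in many PERK transcripts. The annotation was empty for 60, named a kinase for 1 and named another protein for 21, of which 13 read DNA (cytosine-5-)-methyltransferase and 3 phospholipase D. Also among the members were proteins that are no kinase by annotation: the pair annotated protein kinase C substrate 80K-H, a subunit of a glucosidase in mammals, and SNF4, the regulatory gamma subunit of the SNF1-type kinase. PERK transcripts are therefore to be read as transcripts with that symbol.

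By group, the 82 PERK transcripts came first, with the symbols PERK10 (17 transcripts), PERK2 (15), PERK9 (15) and PERK8 (11) most frequent. There were 8 CIPK, 6 CRK, 3 MAP kinase cascade and 2 CPK transcripts. The remaining 20, which no group word matched, held WNK, IRE1 and GCN2 kinases, both YDA transcripts and also ASF1, Prkcsh and SNF4, which are no kinase by annotation. Wall-associated, lectin, S-receptor, leucine-rich repeat and other receptor-like kinases had 0 members, as had SNF1-related kinases by these words. A further 144 transcripts carried the word kinase in other phrases, among them 41 called protein-serine/threonine kinase and 22 called interleukin-1 receptor-associated kinase 4, and lie outside the rule. The transcripts carried 114 scaffold numbers, 5 of them with more than 1 member. Sme2.5_10649 alone held 4 PERK transcripts, so these are not independent.

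**Figure D2:**
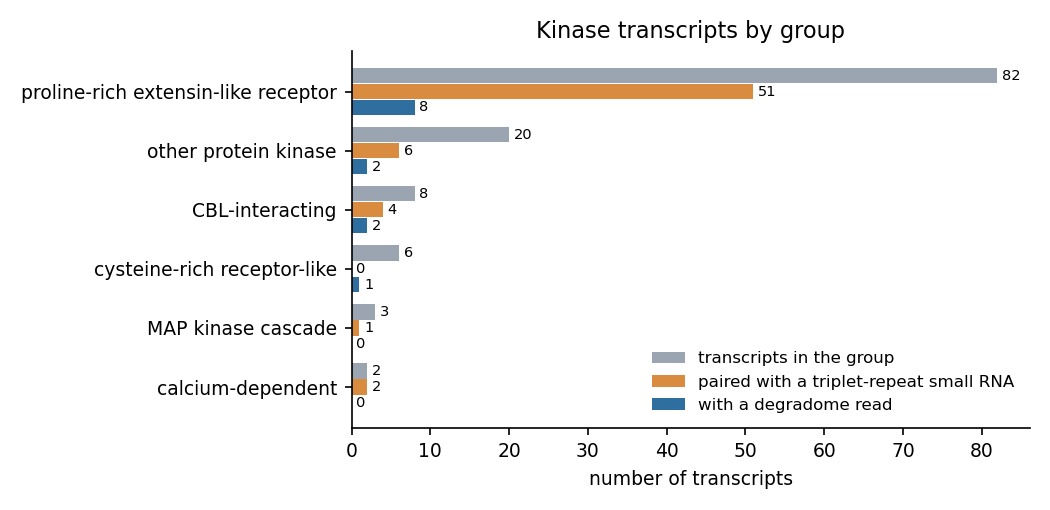
Horizontal bars give the number of transcripts in each group, those paired with a triplet-repeat small RNA and those with a degradome read at a predicted position. The PERK group has 82, 51 and 8, and the 6 CRK transcripts have none paired with a triplet repeat.

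Triplet repeats were found mostly on PERK transcripts. Of their 133 pairs 88 came from triplet-repeat small RNAs (66.2%), against 31 of the 85 pairs of the other 39 members (36.5%). Single transcripts weigh on both shares. Of the 85 pairs MPK16 held 21, none with a triplet repeat, and ASF1 18, all with triplet repeats. Of the 133 a PERK13 transcript held 13, all with triplet repeats. By transcript, a triplet repeat was paired with 51 of 82 PERK, 4 of 8 CIPK, 2 of 2 CPK and 0 of 6 CRK transcripts.

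The alignment score, which rises with mismatches from 0 to 4, was compared between the kinase pairs and all pairs. Of the 218 kinase pairs 64 had the highest score of 4 (29.4%), against 47.8% of all pairs. A score of 1 or less was found in 17 kinase pairs (7.80%, 4.61 to 12.2%), against 4.43% of all pairs. By transcript these were 11 of 121 (9.09%, 4.63 to 15.7%), against 4.92% of all transcripts, which lies inside the interval. ASF1 and PERK2 (Sme2.5_10649.1_g00004.1) each held 3 of the 17 pairs, so the pairs are not independent. The median of the best score per transcript was 3.5 for the kinases and 3.5 for all transcripts. By small RNA the medians differed in no single way. For ptc-MIR6426b-p5 the median best score was 2.5 on kinase transcripts and 3.5 on all its transcripts, and for aqc-MIR482a-p5_1ss16TG it was 2.75 and 3.5. For csi-MIR396c-p3_1ss11TC it was 3.0 on both and for ath-MIR414-p3_1ss15AG 3.5 on both. For aqc-MIR482a-p3_1ss4TC, no triplet repeat, it was 3.0 and 4.0. Without repetitive small RNAs, those listed for 100 or more transcripts, the median of the kinase set was 4.0.

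**Figure D3:**
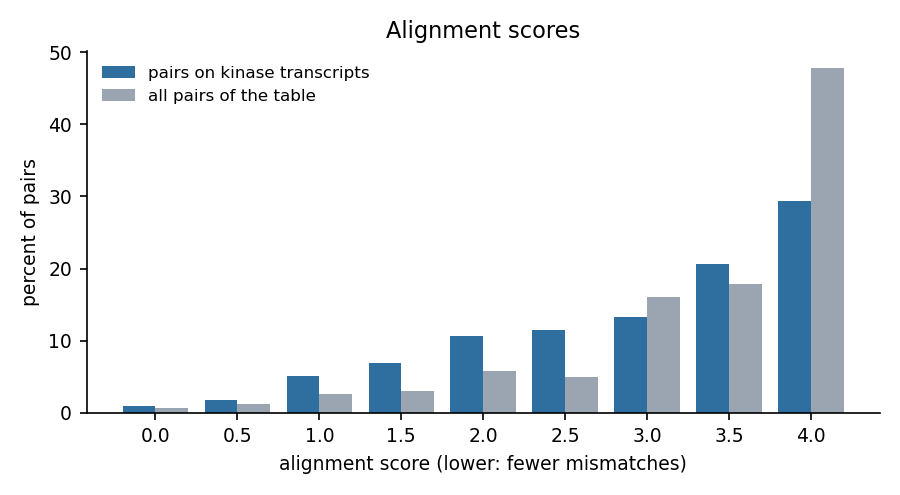
Bars give the percent of pairs at each alignment score for the 218 pairs on kinase transcripts (blue) and the 18764 pairs of the whole table (grey). At a score of 4 the kinase pairs stand at 29.4% and all pairs at 47.8%.

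Only 2 kinase pairs had a score of 0. PERK2 (Sme2.5_10649.1_g00004.1, annotated as a DNA methyltransferase) matched ptc-MIR6426b-p5 at nucleotides 2648 to 2667, and PERK8 (Sme2.5_12607.1_g00001.1) matched csi-MIR396c-p3_1ss11TC at nucleotides 923 to 943. Positions count along the transcript. At 0.5 were CIPK2 (Sme2.5_03681.1_g00015.1) with PC-3p-519926_2 at nucleotides 395 to 418, PERK10 (Sme2.5_00499.1_g00012.1) with aqc-MIR482a-p5_1ss16TG, and the glucosidase-like transcript with symbol ASF1 (Sme2.5_03309.1_g00001.1). At 1 were ttk (Sme2.5_08381.1_g00002.1), annotated as the spindle checkpoint kinase TTK/MPS1 of animals and yeast, another PERK2, a PERK9, PERK11 (Sme2.5_12820.1_g00003.1) and PERK6 (Sme2.5_14182.1_g00001.1). PERK13 (Sme2.5_15412.1_g00002.1) was tied with them at 1 and fell outside the 10 by transcript ID. Among these 10, all but CIPK2, ttk and PERK9 had their best score with a triplet repeat, and 2, PERK2 and PERK11, had a degradome read at that site.

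Some transcripts carried many triplet windows. ASF1 had 18 pairs, all with 2 triplet-repeat small RNAs, with 16 listed windows between nucleotides 43 and 997. PERK13 (Sme2.5_15412.1_g00002.1) had 13 pairs, again all with the same 2 small RNAs, with 12 listed windows between nucleotides 594 and 1163. For 3 kinase pairs the table gives a position of 0, and these are not counted as windows. Across the kinase set 86 of the 121 transcripts had a single pair (71.1%), against 74.1% of all transcripts, and the mean was 1.80 pairs per transcript against 1.45.

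The degradome was then read for ends at the predicted positions. A read was present on 13 of the 121 kinase transcripts (10.7%, 5.85 to 17.7%), against 5.15% of all transcripts and 7.19% of those with an annotation or symbol. The first of these shares lies below the interval and the second inside it, and no test of the difference was made. Without repetitive small RNAs 2 of 41 kinase transcripts had a read (4.88%, 0.596 to 16.5%), against 5.36% of 3583 transcripts in all. Among the 71 members of the signal transduction class 6 had a read (8.45%, 3.16 to 17.5%). By pair the share was 16 of 218 (7.34%, 4.25 to 11.6%), against 5.38% of all pairs. Of the 64 kinase transcripts paired with triplet repeats, 10 had a read for them (15.6%, 7.76 to 26.9%), against 7.49% of the 4649 such transcripts in all. Of the 64 paired with other small RNAs, 3 had a read for them (4.69%, 0.977 to 13.1%), against 3.63% of 8925.

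These reads were few. The 13 positions, 1 per transcript, held 18 raw reads, and 10 of the 13 had a single read (76.9%, against 54.3% of the 825 positions in the table). The highest kinase position had 4 raw reads and the highest of any transcript 754. Category 0 or 1, which by convention marks a position with the highest signal on its transcript, held 0 kinase transcripts and 0 kinase pairs, against 0.34% of all transcripts and 0.682% of all pairs. At 121 transcripts 3 counts make 2.48% and the exact upper limit for a count of 0 is 3.0%, both above the share in the whole table. The authors' p was at most 0.05 for 0 kinase transcripts and 0 kinase pairs, against 0.309% of all transcripts and 0.661% of all pairs, and its lowest value was 0.15. It was 1 in 11 of the 16 kinase pairs with reads (68.8%), against 47.2% of all 1010 such pairs. Category 0 to 3, which leaves out single reads, held 3 kinase transcripts (2.48%, 0.514 to 7.07%), against 2.46% of all, and 3 kinase pairs (1.38%), against 2.66% of all pairs. On 4 of the 13 transcripts every position had normalized reads below the raw reads (30.8%, 9.09 to 61.4%), against 35.3% of all 666 transcripts with a read.

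The 3 were all PERK transcripts in category 2. PERK11 (Sme2.5_12820.1_g00003.1) had 4 raw reads at nucleotide 1074, opposite ptc-MIR6426b-p5, but 0.4 normalized reads. The ratio of raw to normalized reads was 10.0 there, and such a ratio was taken, from the values alone, as the number of places that share a read. PERK13 had 2 raw and 0.2 normalized reads at nucleotide 605, opposite csi-MIR396c-p3_1ss11TC. PERK9 (Sme2.5_00946.1_g00001.1, annotated as a DNA methyltransferase) had 2 raw and 2 normalized reads at nucleotide 1727, opposite ath-MIR414-p3_1ss15AG, at a score of 4. Only in PERK9 were the reads of these 3 not shared with other places.

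Of the 10 transcripts with a single read, PERK8 (Sme2.5_00075.1_g00022.1) had the lowest authors' p. Its read lay at nucleotide 854 and was opposite 3 forms of the 5p strand of miR172, the strand that is usually discarded in favour of the one that acts on AP2 genes. They are printed because the 3 names share the miR172 hairpin family and 1 position.
aly-miR172a-5p_1ss3GA: gUAGCAUCaucaagauucaca
gma-miR172b-5p_R+1_1ss5CT: gUAGUAUCaucaagauucaca
sly-MIR172b-p5_1ss5CT: gUAGUAUCaucaagauuca
These had 1, 6 and 16 reads, scores of 2.5, 3.5 and 2.5, and authors' p of 0.15, 0.542 and 0.556. The second and the third share a seed. CRK2 (Sme2.5_02883.1_g00002.1) had a read at nucleotide 1719 for PC-5p-791564_1 (authors' p of 0.79), and PERK2 (Sme2.5_10649.1_g00004.1) at nucleotide 2658 with 0.125 normalized reads (authors' p of 0.768). CIPK6 (Sme2.5_00016.1_g00004.1) had a read at nucleotide 966 that both ptc-MIR6426b-p5 and csi-MIR396c-p3_1ss11TC pointed to, at a score of 4. CIPK1, TLP1, PERK10, ASF1 and 2 more PERK2 transcripts held the other single reads, all with an authors' p of 1. In all 16 pairs the read began 9 nucleotides before the end of the alignment. Reads were counted only at the predicted position, so this distance follows from the call and adds no support for cutting.

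**Figure D4:**
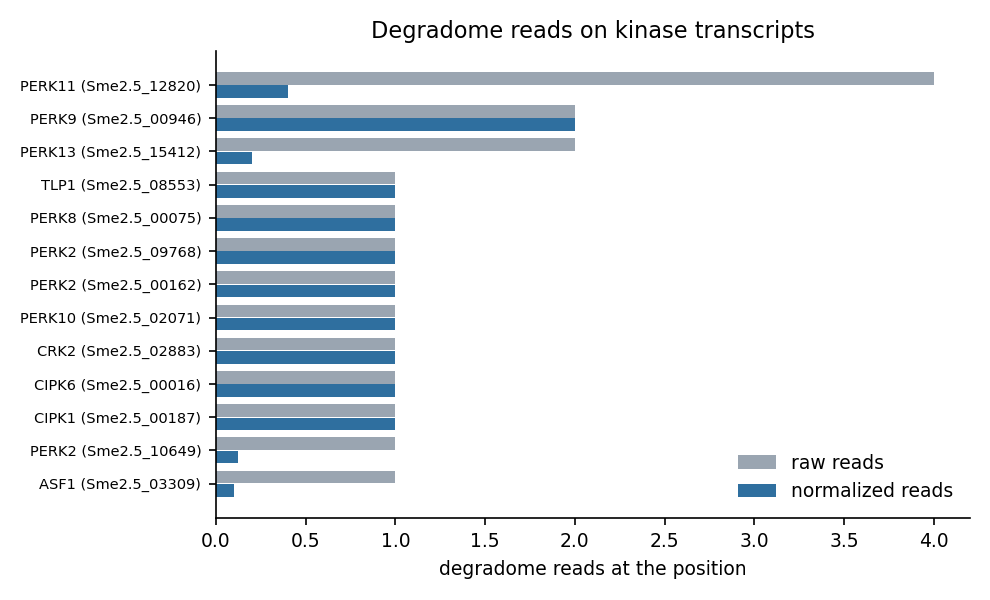
Bars give raw (grey) and normalized (blue) degradome reads at the detected position of the 13 kinase transcripts. PERK11 reaches 4 raw reads but 0.4 normalized, and 4 of the 13 have normalized reads below the raw reads.

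MPK16 (Sme2.5_01583.1_g00001.1), a MAP kinase, stood out by the number of its small RNAs rather than by triplets. It was paired with 21 small RNAs, the most of any kinase transcript, and 13 transcripts of the whole table had more pairs. All 21 had PC names, 16 were 24 nt long and their alignments lay within 37 nucleotides, 1109 to 1145, sharing nucleotides 1122 to 1133. The 6 with the lowest scores (ties by reads) are shown, with capitals for GAGUCCGA, the 8 bases that most of the 21 had in common.
PC-3p-535593_2: aaGAGUCCGAgcaacauagaucua
PC-3p-2003272_1: uauuuuuggaGAGUCCGAgca
PC-3p-498206_2: aaGAGUCCGAgcaacauagauccu
PC-5p-319895_2: uuggaGAGUCCGAgcaacuua
PC-3p-235770_3: gaagagucugagcaacauagccu
PC-3p-519620_2: uuuuggagaguccaagcaacauag
The 8 bases were in 12 of the 21 and in 16 of the 686 listed small RNAs. The last pair above do not hold them and carry no capitals. Their scores were 1.5 to 4 and their reads 1 to 10, with 69 reads together. MPK16 had no degradome read, and the 21 small RNAs were listed for 95 transcripts in all, of which 4 had a read for them (4.21%). No other transcript was paired with as many of the 21. MPK9 and the MAP kinase kinase kinase with the symbol splA had 1 pair each and no read.

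**Figure D5:**
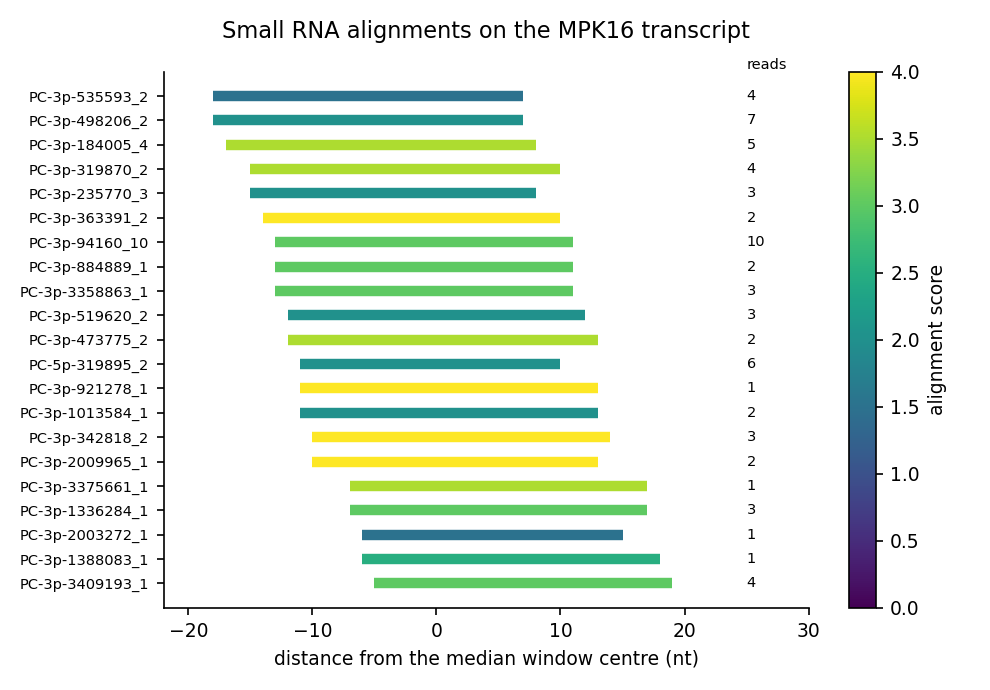
Horizontal bars show where each of the 21 small RNAs aligned on the MPK16 transcript, in nucleotides from the median window centre, coloured by alignment score, with reads of the small RNA at the right. The windows overlap and their reads run from 1 to 10.

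PERK9 (Sme2.5_00034.1_g00014.1, annotated as phospholipase D) also carried many small RNAs in a short stretch, 7 pairs with 7 small RNAs between nucleotides 1825 and 1891. Those had 1 to 7 reads and were listed for 7 to 34 transcripts each, and PERK9 had no read there. CIPK2 was paired with PC-3p-519926_2 (aGUGGGGUcuggggaggguagagu) at 0.5 and with PC-5p-737049_1 at 3, on overlapping windows. These were listed for 589 and 496 transcripts of the table. PDPK2, annotated as the 3-phosphoinositide dependent kinase that acts upstream of other growth kinases, was paired with PC-5p-737049_1 too, at a score of 3. CRK transcripts were paired mainly with aly-miR845b-5p_R-4_1ss1TA, whose Arabidopsis relative is known to match the primer binding site of retrotransposons. It paired with 6 kinase transcripts of its 181, at scores of 3 to 3.5, and 4 of the 6 were CRK2 transcripts, while 0 of the 6 had a read. CRK42 was paired with PC-3p-2607755_1 at 2.5. CIPK24, the relative of the salt tolerance kinase SOS2 of Arabidopsis, was paired with aly-miR172c-5p (11 reads) at 3, without a read. PHOT1, a blue light receptor kinase, and WNK4 had scores of 1.5, and YDA, a MAP kinase kinase kinase of Arabidopsis embryo and stomata, had 4 on both of its transcripts.

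Signalling partners outside the set were counted by annotation or symbol words, and their counts stand beside 5.15% of all transcripts with a read and 0.34% in category 0 or 1. Of 13 calmodulin and calcineurin B-like transcripts 5 had a degradome read, with at most 2 raw reads and 0 in category 0 or 1. Of these 5, 3 are annotated as calmodulin but carry the symbols CCM1, At5g15280 and HSF24 of other proteins. The reads of these 3 were for the triplet repeat ath-MIR414-p3_1ss15AG at a score of 4. The lowest authors' p of the 5 was 0.982. Of 19 transcripts matched by words for other protein phosphatases 2 had one, both with the symbol PP2A13, which in Arabidopsis names an F-box protein and no phosphatase. Sme2.5_04927.1_g00003.1 was in category 0, with 5 raw and 5 normalized reads for stu-miR482c at a score of 4 (authors' p of 0.00519). The other PP2A13 had 1 read in category 4, for ath-MIR414-p3_1ss15AG. Of 52 disease resistance transcripts 10 had a read (19.2%) and 4 were in category 0 or 1, although the highest, RPP2A with 6 raw reads, is annotated as a ribosomal protein. R1B-17, RPP8L4, RPP8L2, RPP13L2 and RPM1 each had 5 raw but 0.714 normalized reads for sly-miR6024_1ss20AC. Such shared reads are not independent detections, and R1B-17, RPP8L4 and RPM1 were in category 0 by them. Of 8 hormone receptors 4 had a read, all TIR1 with miR393, and 2 were in category 0 or 1. Each of these 2 had 61 raw but 19.1 normalized reads, and the others had 9 raw but 1.8 normalized. Normalized reads were below raw reads in all 4, so these too are not independent detections. WRKY transcripts had 1 of 17 (5.88%), Rac-like GTPases and RopGEFs 0 of 5, protein phosphatase 2C 0 of 1, and 14-3-3 proteins were listed 0 times. The kinase words outside the rule gave 17 of 144 with a read (11.8%) and 0 in category 0 or 1.

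Transcript levels were not measured here, so a kinase transcript without a read cannot be told apart from one that is not expressed. Of 13 symbols of pistil identity looked up, 1 (HEC3) was in the target table, without a read, which says nothing of its level.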

How the data were processed

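Total RNA was extracted from mixed pistils, and the small RNA library (TruSeq kit) and the degradome library (after German and colleagues) were made as the labels' protocols state. Read counts per distinct small RNA sequence were deposited, per the file headers, and the authors deposited raw degradome read counts per detected pair. The deposited normalized reads are a signal value that never exceeded the raw reads. The alignment score and the category from 0 to 4 are score columns deposited by the authors, and the deposited p-value per pair was taken as unadjusted. Naming, target prediction, categories and the genome build are not given in the sources used here. No libraries were replicated, so shares carry exact 95% intervals and no test was made.

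Members, groups and lists were chosen with earlier results of these data known. Transcripts were named from category 0, 1 or 3 or by an authors' p no higher than 0.05 (0 met this), up to 12 in category 2 by raw reads (3 were), the 10 with the lowest scores and the 5 of category 4 with the lowest p. Other members named by symbol, such as MPK16, were chosen after their values were seen. Each transcript position was counted 1 time for reads. The choice of members and groups, the share of repeated bases and the intervals were tested on small made-up examples. Tables were joined with pandas 2.3.3 and NumPy 2.4.6 in Python 3.11.15. Intervals came from SciPy 1.17.1 and plots from matplotlib 3.10.9. Alternatives changed the choice of members, the score limit, repetitive small RNAs, shared reads and the minimum of small RNA reads.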

Additional observations from a re-analysis of the deposited data

How the results depend on the processing

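Of 38 recomputed values, 18 stayed in place and 20 moved. The share of kinase pairs from triplet repeats became 47.1% without ASF1 and PERK13, chosen after the data were seen. No transcript reached category 0 or 1, or an authors' p of at most 0.05, when any annotation of kinase was added to the members. The other alternatives for these counts removed members, pairs or reads, or raised the limit of p to 0.1, below the lowest value of 0.15. Their counts of 0 were therefore fixed in advance, and they are among the values that stayed in place. The share of kinase transcripts with a read moved out of its interval without repetitive small RNAs, to 4.88%, and stayed inside it under the other 6 alternatives. The 3 transcripts above single reads became 0 with the annotation words alone, 0 without repetitive small RNAs, 1 with unshared reads only, and 11 with any annotation of kinase. The median best score became 4.0 without repetitive small RNAs and 4.0 with small RNAs of 10 or more reads. The 82 small RNAs became 22 with the annotation words alone, 138 with any kinase, 37 at scores of 3 or less and 11 at 10 or more reads. The share of the leading small RNA became 13.6%, 17.0%, 37.3% and 15.4% in the same order. The 18 raw reads became 2 with the annotation words alone, 50 with any kinase, 10.8 as normalized reads and 10.0 with unshared reads only. Each alternative holds other members, pairs or reads, and beyond that the cause was not tested. No paired analysis was possible because each kind of library had 1 sample. With 18 raw reads on 13 positions, depth limits every statement on single members.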

Other observations

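The windows of the triplet-repeat small RNAs were uneven in register along the transcripts of the whole table, to differing degrees. Of the 1364 windows of ath-MIR414-p3_1ss15AG with a listed position, 78.9% began at a multiple of 3, and of the 214 of ath-MIR414-p5_1ss16CA 90.2% began with a remainder of 1. For ptc-MIR6426b-p5 the shares at a multiple of 3, a remainder of 1 and a remainder of 2 were 47.5%, 7.81% and 44.7% of 1844 windows. For sof-MIR159c-p5_1ss11GA they were 54.4%, 23.5% and 22.0% of 327, and for all 7 triplet repeats together 40.2%, 17.4% and 42.4% of 6182. For small RNAs that are no triplet repeat they were 33.4%, 32.7% and 33.9% of 12565. On kinase transcripts ath-MIR414-p3_1ss15AG had 9 of 12 windows at a multiple of 3, and ptc-MIR6426b-p5 had 27, 3 and 24 of 54. The windows of small RNAs that are no triplet repeat were uneven on kinase transcripts too, at 43.4%, 31.3% and 25.3% of 99. csi-MIR396c-p3_1ss11TC had 28.0% of 25 windows at a multiple of 3 on kinase transcripts and 8.97% of 936 in all. On ASF1 13 of the 14 windows of ptc-MIR6426b-p5 began at a multiple of 3, and on PERK13 5 of 6. Windows on the same transcript are not independent.

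The annotation DNA (cytosine-5-)-methyltransferase was given to 36 transcripts of the table, of which 13 had a PERK symbol, 1 was a CRK2 and 2 had a symbol of a DNA methyltransferase, DMT1 or CMT3. Of the 14 kinase-symbol transcripts among them 12 had the KOG class of signal transduction. All 36 carried the KEGG pathway of cysteine and methionine metabolism, which was listed for 54 transcripts in all.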
